A study of Mus musculus with 20 samples.

Results

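The growth hormone and insulin-like growth factor (IGF) axis of the liver is described here through 10 genes chosen by name: Ghr, Stat5a, Stat5b, Igf1, Igfals, Socs2, Cish, Igfbp2, Igfbp4 and Bcl6. All 10 were found among the 21768 gene symbols of the count table, each represented by the transcript with the highest count summed over the libraries used, and all 10 passed the filter on low counts. Livers of wild-type mice (genotype WT) that had taken cadmium chloride (CdCl2) at 100 mg/L in drinking water were set beside control livers, at 3 and at 9 months. The values are read counts in 10 input libraries, the RNA sequenced without the antibody step of m6A sequencing, an assay that pulls down RNA fragments carrying methylated adenosine. Each time has 2 control and 3 exposed libraries. The labels give the controls no treatment beyond the word control, and say nothing of sex, strain, age or pooling of animals.

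As background, growth hormone released by the pituitary binds its receptor on hepatocytes, which activates the kinase JAK2 and through it the transcription factors STAT5A and STAT5B. STAT5B is known as the main form in mouse liver, where it drives Igf1 and Igfals, whose products circulate together, and switches on Socs2 and Cish, which damp the receptor's signal. IGF-binding proteins carry IGF in blood and tissue, and BCL6 is a repressor that can occupy the same DNA elements as STAT5. The pattern of growth hormone release differs between the sexes and sets many sex-biased genes of rodent liver.

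STAT5 binds a palindromic core, TTCNNNGAA, which reads the same on both strands and was searched for in the RefSeq promoter windows of the members (build GRCm38.p6, 250 bases before to 50 after each annotated start). Windows were matched for 9 members, 16 in all, and Socs2 had no entry. The core was in 5 of the 16 windows, those of Cish, Bcl6 and Igfals, against 8.3% of all 32851 mouse windows. Counted by gene, it was in 3 of the 9 members, against 9.55% of all genes with a window. The members were chosen as genes of this axis, so these shares are no test. At least 2 cores stood in 1 Cish window and 1 Bcl6 window, against 0.457% of all windows. The 3 sequences below are shown because they carry the letters STAT5 recognises next to genes whose levels are reported here, and the capitals mark the core. The Cish sequence is chr9:107296409-107296678 on the plus strand and runs to 20 bases past the start, so that both of its cores are shown. The Bcl6 sequence is chr16:23981284-23981533 on the minus strand and holds 3 cores, beginning 168, 122 and 88 bases before an annotated start. The Igfals sequence is chr17:24877981-24878230 on the plus strand with 1 core that begins 58 bases before an annotated start. These starts are not those of the transcripts counted. Taking the table's positions as the same build, the counted transcript of Cish begins 382 bases downstream of the start in its window and that of Igfals 539 bases downstream. Igfals has 3 windows, and the one nearest to the counted transcript, with a start 23 bases from it, holds 0 cores. Bcl6 has 2 windows, and neither start is that of the counted transcript, which begins 532 bases upstream of the start in the sequence shown. A match describes letters in the window and not binding in these livers.
Cish: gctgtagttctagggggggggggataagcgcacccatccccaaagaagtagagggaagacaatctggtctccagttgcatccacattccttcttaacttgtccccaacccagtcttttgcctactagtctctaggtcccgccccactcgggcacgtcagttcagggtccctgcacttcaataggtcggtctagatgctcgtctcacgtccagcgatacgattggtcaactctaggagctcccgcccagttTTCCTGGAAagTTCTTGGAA
Bcl6: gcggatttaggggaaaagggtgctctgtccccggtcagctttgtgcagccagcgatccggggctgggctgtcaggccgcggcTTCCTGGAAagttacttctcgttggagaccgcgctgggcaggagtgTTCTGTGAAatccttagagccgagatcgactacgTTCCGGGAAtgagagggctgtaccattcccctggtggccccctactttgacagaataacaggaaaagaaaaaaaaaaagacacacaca
Igfals: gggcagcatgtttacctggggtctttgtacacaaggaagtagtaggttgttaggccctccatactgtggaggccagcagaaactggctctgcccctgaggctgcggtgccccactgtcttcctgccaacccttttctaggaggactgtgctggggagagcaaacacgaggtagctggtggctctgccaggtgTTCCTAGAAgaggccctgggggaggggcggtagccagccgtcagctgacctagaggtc

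The libraries held 3958164 to 8912898 counts over genes, and 3 counts in a library correspond to 0.352 to 0.663 CPM, counts per 1000000 of a library total scaled by the TMM method. The 2 control libraries at 3 months stood apart, with a median correlation to the rest of 0.796 and 0.805, while each of the other 8 had 0.873 to 0.922. Every comparison with 3-month controls rests on them, so each log2 fold change for cadmium at 3 months is also given without control 2 and without control 3. Summed hepatocyte markers were at 68189 to 106785 CPM in all libraries, those of stellate cells at 288 to 378 and those of endothelium at 274 to 358. Kupffer cell and macrophage markers summed to 148 and 178 CPM in the 3-month controls and to 152 to 378 elsewhere. Cholangiocyte markers summed to 60.1 CPM in 3-month control 2, against 5.63 to 18.3 elsewhere. Pancreas markers summed to 9146 CPM in 9-month control 2, 1789 in 9-month exposed liver 1 and 247 in 3-month control 3, against 8.4 to 33.5 in the other 7. Erythroid markers summed to 31.4 to 152 CPM, highest in 9-month control 2. Sums were 0.352 to 8.85 CPM for lymphocyte, 0.53 to 6.9 for neutrophil and 0 to 5.83 for adipose markers. Within these lists the lymphocyte marker Cd79a and the erythroid marker Hba-a2 were at 0 in all libraries. The part of these differences in the results was not tested. The labels do not say that libraries came from separate animals, so p-values measure the spread between these samples, which may be technical. In such bulk libraries, fewer cells of a type and less RNA per cell cannot be told apart.

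Per length, in the deposited TPM (transcripts per 1000000, mean over 10 libraries), the binding proteins stood first, Igfbp4 at 706 and Igfbp2 at 340.3. The receptor Ghr followed at 202 and the ligand Igf1 at 145. Igfals was at 24.3, Stat5b at 13.1, Socs2 at 11.7, Stat5a at 3.56, Bcl6 at 2.93 and Cish at 2.03. Igfbp4 was above Igfbp2, and Igf1 above Igfals, in all 10 libraries, and the range of Igf1 alone did not overlap that of the gene below it. Neighbours lower in the order did not separate: Stat5b was above Socs2, Stat5a above Bcl6, and Bcl6 above Cish in 6 libraries each. The spread over libraries differed by gene, with a highest level 19.7 times the lowest for Socs2, 10.1 times for Cish and 9.24 times for Igfals, against 2.74 times for Stat5b. Reads shared by transcripts of a gene were counted for several of them, so the order of TPM is approximate.

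**Figure D1:**
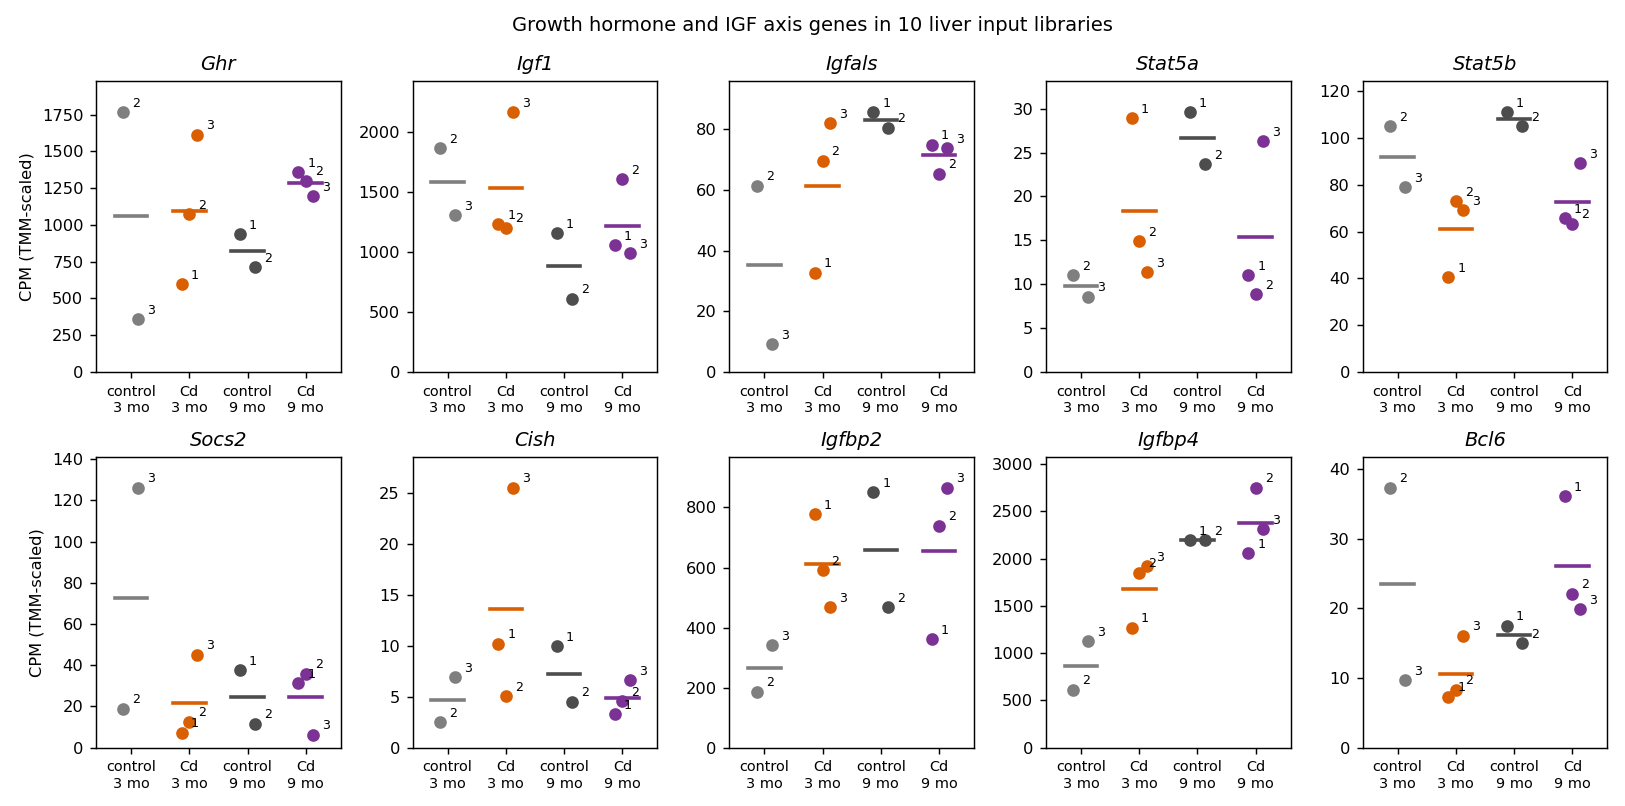
CPM of each of the 10 genes (linear axis from 0) in every input library, with points numbered by replicate and a bar at the group mean. The exposed points of Stat5b lie below the control points at both times, and the 3-month controls of Ghr, Igfals and Socs2 lie far from each other.

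No member passed an adjusted p of 0.05 in edgeR's quasi-likelihood test for cadmium at 3 months. DESeq2 and limma voom with library weights called 0 members as well. Of all 14067 genes tested, 0.0498% passed edgeR's test, which is 7 genes, against 3.41% by DESeq2 and 0.0142% by limma voom. At an unadjusted p under 0.05 the count was 2 of 10 members, Igfbp2 and Igfbp4, against 14.5% of all genes. Exposed and control libraries did not overlap for 4 of 10 members (Stat5a, Stat5b, Igfbp2 and Igfbp4), against 25.8% of all genes. The median log2 fold change of the members was 0.43, with 6 of 10 above 0, beside a median of 0.01 and 50.6% above 0 over all genes. Without 3-month control 2, 2 members passed edgeR's test (Ghr and Igfals), while 4.62% of all genes did. Without control 3, 3 members passed (Igfbp2, Igfbp4 and Bcl6), while 8.16% of all genes did. Both fits take the spread of the single remaining control from the remaining groups, and different members passed in each.

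At 9 months edgeR's test again called 0 of 10 members, with 0% of all genes called. DESeq2 and limma voom called 0 members, and 0.0498% and 0.0213% of all genes. With an unadjusted p under 0.05 there were 0 members, against 2.25% of all genes. The groups did not overlap for 4 of 10 members (Ghr, Igfals, Stat5b and Bcl6), against 22% of all genes. The members' median log2 fold change was 0.00, with 5 of 10 above 0, beside 0.01 and 50.7% for all genes. The test of the difference between the 9-month and 3-month effects called 0 members and 0% of all genes. DESeq2 and limma voom called 0 members, and 0.284% and 0% of all genes. Unadjusted p under 0.05 held for 2 of 10 members, Stat5a and Bcl6, against 9.42%.

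**Figure D2:**
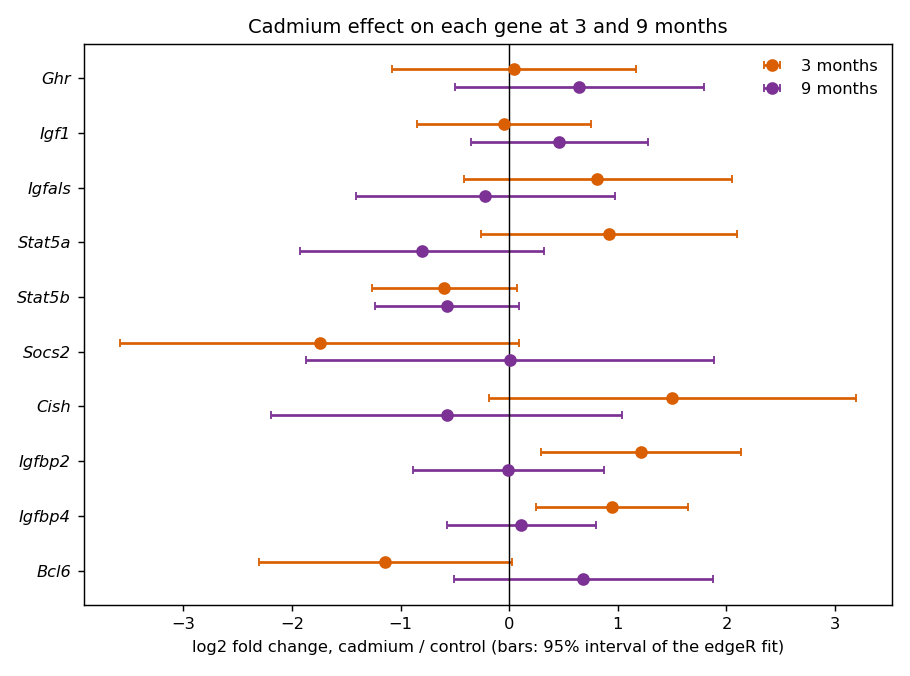
Log2 fold change of cadmium over control for each gene at 3 months (orange) and 9 months (purple), with the 95% interval of the edgeR fit over 10 libraries. All intervals include 0 except those of Igfbp2 and Igfbp4 at 3 months, and the 2 points of Stat5b lie at -0.60 and -0.57.

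Ghr encodes the growth hormone receptor (gene ID 14600, chromosome 15, 3317755 to 3583352). Controls of 3 months held it at 1766 and 358 CPM, exposed livers at 595, 1074 and 1612. The 3-month controls therefore stood on either side of all 3 exposed livers, 4.93-fold apart. For exposed against control the log2 fold change was 0.04 ± 0.52 (SE; edgeR adjusted p = 0.988). Without control 2 it was 1.62 and passed (adjusted p = 0.038), and without control 3 it was -0.69. At 9 months the controls were at 936 and 711 CPM and the exposed livers at 1358, 1300 and 1196. All 3 exposed livers were above both controls, by a log2 fold change of 0.64 ± 0.53, which did not pass edgeR's test (adjusted p = 1).

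Ghr also has a shorter transcript in the table, variant 2, whose 3′ end lies at 3327525 rather than 3317755. Mouse Ghr is known to give a soluble growth hormone binding protein besides the membrane receptor, from an alternatively spliced transcript. The ratio of the counts of the shorter to the longer transcript was looked at after its values were seen, and the transcripts share reads, so it is no measure of molecules. It was 31.5% and 34.3% in the 9-month controls and 16.5%, 17.2% and 24.3% in the exposed livers of that time. These groups did not overlap, with means of 32.9 ± 1.95 (SD, n = 2) and 19.3 ± 4.35 (SD, n = 3) percent. The exact permutation test, made two-sided by doubling the smaller tail, gave p = 0.2. That is the smallest value this form of the test can give for 2 against 3 libraries. Groups that do not overlap always give it, so it adds nothing to that observation. At 3 months the controls were at 10.6% and 23.8% and the exposed livers at 18.1%, 16.1% and 14.4%, between them.

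Stat5a and Stat5b are paralogs that lie side by side on chromosome 11, and reads from stretches they share may have been counted for either. Stat5b (gene ID 20851, 100780731 to 100850585) was at 105 and 78.9 CPM in the 3-month controls and at 40.5, 73 and 69.2 in the exposed livers. At 9 months it was at 111 and 105 CPM in the controls and at 65.8, 63.4 and 89.1 in the exposed livers. All exposed libraries were below all controls of their time at both times, which held for 1 of 10 members and for 1.39% of all genes. That direction was taken from the values, and genes higher at both times are not in the share. The log2 fold change was -0.60 ± 0.31 (edgeR adjusted p = 0.396) at 3 months and -0.57 ± 0.31 (adjusted p = 1) at 9 months, so that controls had 1.51 and 1.49 times the level of exposed livers. The 3-month value was -0.37 without control 2 and -0.79 without control 3.

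The mean of both effects was tested after these values had been seen. For Stat5b it was -0.58 ± 0.22 with a 95% interval of -1.05 to -0.11, and it did not pass edgeR's test over all genes (adjusted p = 0.525). That contrast called 0 of 10 members and 0.064% of all genes, with 0 members by DESeq2 and by limma voom, against 0.832% and 0.0853% of all genes. At an unadjusted p under 0.05 it had 2 of 10 members, Stat5b and Igfbp4, against 8.35% of all genes. Leaving out 3-month control 2 took its count to 2 (Ghr at 1.13 and Igfals at 1.26), and leaving out 3-month control 3 to 1 (Igfbp4 at 0.78), where 2.51% and 2.13% of all genes passed. Over the alternative settings the Stat5b values ran from -0.68 to -0.47 and stayed below 0. With all exposed libraries below all controls of their time, leaving out a library could not turn that sign.

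Stat5a (gene ID 20850, 100860198 to 100885169) was the scarcer form per length, with a lower TPM than Stat5b in every library. It was at 11 and 8.56 CPM in the 3-month controls and at 28.9, 14.9 and 11.4 in the exposed livers, all of which were higher (log2 0.92 ± 0.55, edgeR adjusted p = 0.461). The value was 1.10 without control 2 and 0.75 without control 3. At 9 months the controls were at 29.6 and 23.7 CPM and the exposed livers at 11, 8.85 and 26.3, so the groups overlapped through exposed liver 3 (log2 -0.80 ± 0.52, edgeR adjusted p = 1). The difference between the effects was -1.72 ± 0.76 (edgeR adjusted p = 0.514), and it was -1.91 and -1.55 without 3-month control 2 and 3.

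Igf1, the ligand that liver releases into blood, has 14 transcripts with near-equal counts (gene ID 16000, chromosome 10, 87859052 to 87937047). It was at 1861 and 1306 CPM in the 3-month controls and at 1229, 1199 and 2161 in the exposed livers, and the groups overlapped. The log2 fold change was -0.05 ± 0.37 with a 95% interval of -0.85 to 0.75 (edgeR adjusted p = 0.974), and it was 0.23 without control 2 and -0.28 without control 3. At 9 months Igf1 was at 1154 and 609 CPM in the controls and at 1053, 1606 and 986 in the exposed livers. Control 2 was the lowest library of all and control 1 lay among the exposed (log2 0.46 ± 0.38, interval -0.35 to 1.28, edgeR adjusted p = 1).

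Igfals encodes the acid-labile subunit, which holds IGF in a large circulating complex (gene ID 16005, chromosome 17, 24878770 to 24882008). It was at 61.4 and 9.26 CPM in the 3-month controls and at 32.7, 69.6 and 82 in the exposed livers. The level in control 3 was the lowest of the 10 libraries. Its log2 fold change was 0.81 ± 0.57 (edgeR adjusted p = 0.543). The value was 2.73 without control 2, which passed (adjusted p = 0.00263), and 0.01 without control 3. It did not pass with any library other than control 2 left out. At 9 months the levels were close together, 85.6 and 80.5 CPM in controls and 74.9, 65.4 and 73.8 in exposed livers. All exposed libraries were lower, by a log2 fold change of only -0.22 ± 0.55 (edgeR adjusted p = 1).

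Socs2, a feedback inhibitor of the growth hormone receptor (gene ID 216233, chromosome 10, 95411490 to 95416857), was the most variable member. It was at 19 and 126 CPM in the 3-month controls and at 7.35, 12.7 and 45.1 in the exposed livers. Control 3 alone was above all exposed livers, and control 2 lay among them. The log2 fold change was -1.74 ± 0.85 (edgeR adjusted p = 0.366), and it was -2.53 without control 2 and 0.20 without control 3. At 9 months the levels were 37.6 and 11.7 CPM in controls and 31.4, 35.9 and 6.41 in exposed livers, a log2 fold change of 0.01 ± 0.87 with an interval of -1.87 to 1.89 (edgeR adjusted p = 1).

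Cish, a further feedback inhibitor of the same family, is the gene of the sequence shown with a pair of cores (gene ID 12700, chromosome 9, 107297041 to 107301962). It had 12 to 195 counts per library. It was at 2.53 and 6.92 CPM in the 3-month controls and at 10.2, 5.05 and 25.5 in the exposed livers (log2 1.50 ± 0.78, edgeR adjusted p = 0.4). Exposed liver 2 lay between the controls. Without control 2 the log2 fold change was 0.98, and without control 3 it was 2.42, and neither passed. At 9 months it was at 9.95 and 4.51 CPM in the controls and at 3.3, 4.58 and 6.62 in the exposed livers (log2 -0.57 ± 0.75, edgeR adjusted p = 1). Without 9-month control 1 that value was 0.11.

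Igfbp2 encodes an IGF-binding protein (gene ID 16008, chromosome 1, 72824480 to 72852474). It was at 187 and 342 CPM in the 3-month controls and at 778, 590.3 and 467 in the exposed livers, all of them higher. The group means were 265 ± 109 CPM (SD, n = 2) and 612 ± 157 CPM (SD, n = 3). The log2 fold change was 1.21 ± 0.43 with a 95% interval of 0.29 to 2.13, and edgeR's adjusted p was 0.238. Without control 3 it was 1.71 (adjusted p = 0.0397), and without control 2 it was 0.84. It passed without control 3 alone. At 9 months Igfbp2 was at 850.3 and 468 CPM in the controls and at 362, 739 and 865 in the exposed livers (log2 -0.01 ± 0.41, edgeR adjusted p = 1).

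Igfbp4 encodes a binding protein known to hold IGF back from its receptor (gene ID 16010, chromosome 11, 99041260 to 99052646). It was at 614 and 1124 CPM in the 3-month controls and at 1270, 1849 and 1921 in the exposed livers, again all higher. The log2 fold change was 0.95 ± 0.33 (95% interval 0.25 to 1.65, edgeR adjusted p = 0.229), and it was 1.45 and passed without control 3 (adjusted p = 0.0136) and 0.58 without control 2. At 9 months the controls were at 2193 and 2195 CPM and the exposed livers at 2058, 2748 and 2311, around the controls (log2 0.11 ± 0.32, edgeR adjusted p = 1).

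Bcl6 encodes the repressor named above (gene ID 12053, chromosome 16, 23965171 to 23981815), and the sequence shown with 3 cores is 1 of its 2 RefSeq windows. It was at 37.3 and 9.73 CPM in the 3-month controls and at 7.35, 8.32 and 16.1 in the exposed livers. Control 2 was above all exposed livers and control 3 lay among them (log2 -1.14 ± 0.54, edgeR adjusted p = 0.358). Without control 2 the value was 0.13, and without control 3 it was -1.81 and passed (adjusted p = 0.0277). At 9 months Bcl6 was at 17.5 and 15 CPM in the controls and at 36.1, 22.1 and 19.9 in the exposed livers, all higher (log2 0.68 ± 0.56, edgeR adjusted p = 1). The difference between the effects was 1.82 ± 0.78 (edgeR adjusted p = 0.511). Without 3-month control 3 that difference was 2.49 and passed (adjusted p = 0.0381), and without 3-month control 2 that of Igfals was -2.95 and passed (adjusted p = 0.0092), with 3.84% and 2.06% of all genes passing in those fits.

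**Figure D3:**
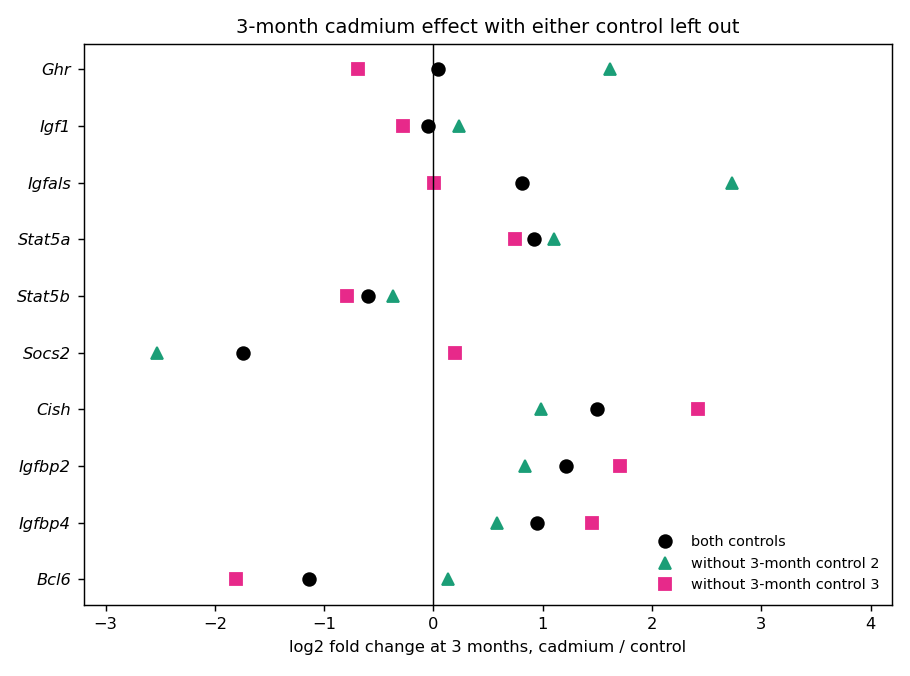
Log2 fold change of cadmium over control at 3 months for each gene with both controls (circles), without control 2 (triangles) and without control 3 (squares). Ghr, Socs2, Igf1 and Bcl6 change sign between settings. Stat5b, whose exposed libraries all lie below both controls, stays below 0 at -0.37 and -0.79.

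The profile of the libraries differed between the 3-month controls gene by gene. Control 2 had the highest Ghr and Bcl6 and the lowest Igfbp2, Igfbp4 and Cish of the 10 libraries. Control 3 had the lowest Ghr, Igfals and Stat5a and the highest Socs2. No other library held as many extremes.

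**Figure D4:**
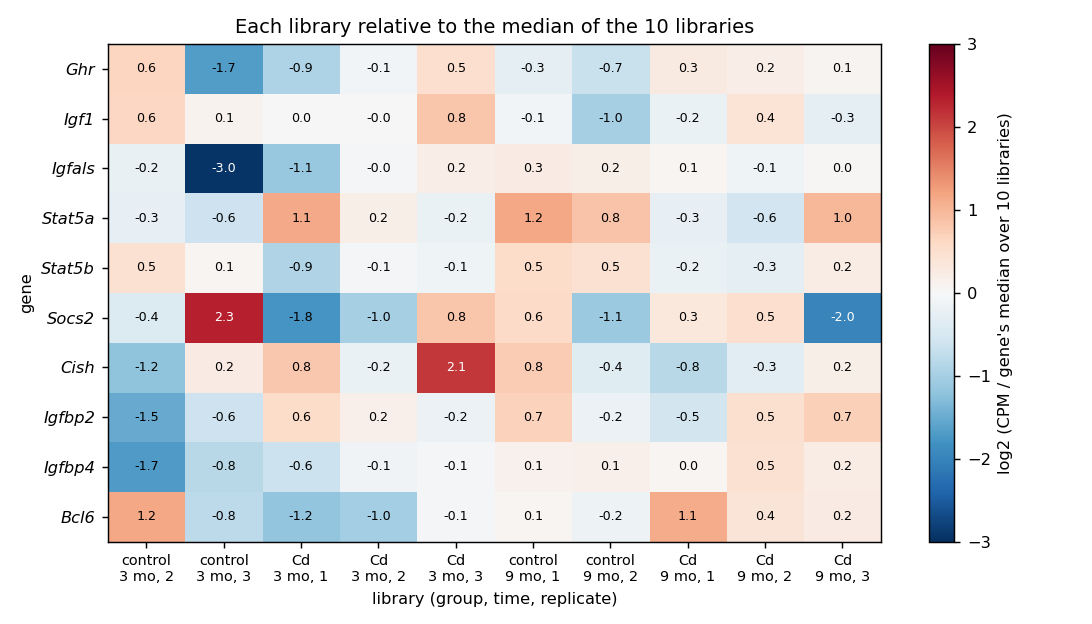
Log2 of each library's CPM over the gene's median of the 10 libraries (rows genes, columns libraries, colour from -3 to 3). The deepest colours lie in 3-month control 3, where Igfals is at 9.26 CPM and Socs2 at 126 CPM.

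The comparison of 9 with 3 months in control livers called 0 of 10 members by edgeR, against 1.89% of all genes. By limma voom it called 0 members and 0% of all genes. DESeq2 called 2 of 10 members, Igfbp2 (adjusted p = 0.0449) and Igfbp4 (adjusted p = 0.00403), while it called 8.8% of all genes. At an unadjusted p under 0.05 it had 3 of 10 members (Stat5a, Igfbp2 and Igfbp4), against 20.1% of all genes. Igfbp4 was 2.52-fold higher at 9 months with no overlap (log2 1.34 ± 0.35, edgeR adjusted p = 0.0621), and it passed at 1.84 without 3-month control 3 (adjusted p = 0.00298). Igfbp2 had a log2 difference of 1.32 ± 0.46 (edgeR adjusted p = 0.132), which passed at 1.82 without that library (adjusted p = 0.0229). Stat5a had 1.45 ± 0.59 (edgeR adjusted p = 0.191), Igfals 1.25 ± 0.62 (adjusted p = 0.282) and Igf1 -0.85 ± 0.41 (adjusted p = 0.272). Igfals passed at 3.17 without 3-month control 2 (edgeR adjusted p = 0.0014) and was at 0.44 without control 3. Of all genes, 6.36% passed without control 2 and 15.3% without control 3. This comparison and that of cadmium at 3 months share the 3-month controls, so their values are not independent.

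In exposed livers, 9 against 3 months called 0 of 10 members and 0% of all genes by edgeR. Its fold changes compare no 3-month control, but the spread in its test was estimated with those controls. Fitted without both 3-month controls, it called 0 members and 0.0437% of all genes. DESeq2 and limma voom called 0 members, and 0.121% and 0.0213% of all genes. Cish and Bcl6, 2 of 10 members, had an unadjusted p under 0.05, against 4.95% of all genes. Bcl6 was higher in all 9-month exposed livers (log2 1.30 ± 0.50, edgeR adjusted p = 0.98), and so was Igfbp4 (log2 0.50 ± 0.28, edgeR adjusted p = 1). Cish had a log2 difference of -1.49 ± 0.68 (edgeR adjusted p = 0.994) with overlapping groups.

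Of 34 further genes of the pathway, 29 passed the filter on low counts. At 3 months 1 of the 29 passed lower and 0 higher, with 13 of 29 above 0 and a median log2 fold change of -0.21. Over all genes 0.0498% passed. At an unadjusted p under 0.05 there were 4 of 29, Igfbp1 among them, against 14.5% of all genes. Without 3-month control 2, 2 of 29 passed higher and 5 lower (Grb10, Hnf4a, Igf2r, Igfbp1, Irs2, Prlr and Stat3 in all), with a median of -0.37 and 4.62% of all genes passing. Without control 3, 2 passed higher and 1 lower (Igfbp1, Onecut1 and Ptpn1), 18 of 29 were above 0 and the median was 0.50, with 8.16% of all genes passing. Igfbp1 alone was called in both. The gene that passed with both controls was Igfbp1, a binding protein known for its rise in fasting. Its change at 3 months was known from earlier results when the lists were made, so 1 of 29 does not measure the pathway. Igfbp1 was at 176 and 2116 CPM in the 3-month controls and at 11.8, 20.3 and 18.4 in the exposed livers, all lower. It fell by 6.08 ± 0.87 on the log2 scale (edgeR adjusted p = 0.026). The value was -6.96 without control 2 (adjusted p = 1.64e-06) and -3.38 without control 3, whose level was the highest by far (adjusted p = 0.00472). Igfbp1 passed in 6 of 10 fits that left out 1 library. It missed the threshold without exposed liver 1, 2 or 3 of 3 months (adjusted p = 0.148, 0.175 and 0.18) or exposed liver 1 of 9 months (adjusted p = 0.0513).

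At 9 months Igfbp1 was at 33.2 and 59.3 CPM in controls and at 11.1, 45.8 and 12.6 in exposed livers, which overlapped. At that time 0 of 29 pathway genes passed edgeR's test and 0 passed by DESeq2 or limma voom. An unadjusted p under 0.05 held for 2 of 29, against 2.25% of all genes. The median of the list was -0.30, with 9 of 29 above 0. The 3 with the highest mean level were the epidermal growth factor receptor Egfr (log2 0.62 ± 0.56 at 9 months), the hepatocyte transcription factor Hnf4a (-0.25 ± 0.48) and the insulin receptor Insr (0.13 ± 0.26). The kinase Jak2 had log2 fold changes of 0.09 ± 0.45 at 3 and 0.68 ± 0.46 at 9 months, and its 3-month value was -0.21 without control 2 and 0.50 without control 3. The IGF receptor Igf1r had -0.04 ± 0.64 and -0.35 ± 0.64, and the prolactin receptor Prlr, a relative of Ghr, had 0.43 ± 0.49 and -0.37 ± 0.48. At 3 months Igf1r was at -0.74 without control 2 and 1.49 without control 3. Prlr was at 2.01 without control 2, where it passed (edgeR adjusted p = 0.00683), and at -0.31 without control 3. In the mean of both times 1 of 29 passed, Igfbp1, whose 3-month change was known beforehand (log2 -3.54 ± 0.56, edgeR adjusted p = 0.0382). It passed without 3-month control 2 or 3, 9-month control 1 or 9-month exposed liver 2, and not without any of the other 6 (adjusted p = 0.0759 to 0.16). Without 3-month control 3 its value was -2.19.

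Between 9 and 3 months in controls 2 of 29 pathway genes passed higher and 1 lower, with 1.89% of all genes passing. Igfbp7, a binding protein with low affinity for IGF, was at 10.5 and 15 CPM at 3 months and at 67.7 and 68.3 at 9 months (log2 2.40 ± 0.39, edgeR adjusted p = 0.0272). Igfbp5 was at 4.01 and 5.51 CPM and then at 17 and 39.6 (log2 2.56 ± 0.60, edgeR adjusted p = 0.0492). Igfbp1 fell by 4.63 ± 0.97 (edgeR adjusted p = 0.0378), and by 1.92 without 3-month control 3. Of 10 fits that left out 1 library, Igfbp7 passed in 6, Igfbp1 in 3 and Igfbp5 in 1. Igfbp7 missed the threshold without 3-month exposed liver 2, 9-month control 1 or 2, or 9-month exposed liver 1 (adjusted p = 0.0557 to 0.162). Igfbp1 passed without 3-month control 2 or 3 or 9-month exposed liver 2, and Igfbp5 without 3-month control 3 (log2 2.83), and not otherwise. DESeq2 called all 3 genes, and 8.8% of all genes, and limma voom called 0 of the 3.

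Of 18 genes known as male-biased in mouse liver under growth hormone, all passed the filter and 0 passed edgeR's test for cadmium at either time. DESeq2 called 1 of them at 3 months, C4a, where it called 3.41% of all genes, and 0 at 9 months, and limma voom called 0 at both. At an unadjusted p under 0.05 there were 8 of 18 at 3 months and 4 of 18 at 9 months, against 14.5% and 2.25% of all genes. At 3 months 6 of 18 were above 0, with a median of -0.70, and at 9 months 15 of 18 were above 0, with a median of 0.70. No test of these medians was made. Without 3-month control 2, 6 of 18 passed edgeR's test at 3 months, 2 higher and 4 lower (C4a, Cyp2u1, Moxd1, Mup20, Mup21 and Mup7), against 4.62% of all genes. Without control 3, 1 passed higher and 1 lower (Cyp4a12b and Slco1a1), against 8.16%, and no gene was in both sets. The 3-month median was -0.79 without control 2 and 0.14, with 10 of 18 above 0, without control 3. The 9-month median was 0.36, with 13 of 18 above 0, without 9-month control 2 and exposed liver 1, the libraries richest in pancreas markers. The members with the highest levels were Mup7, Mup3, Slco1a1 and Mup20, of which the Mup genes encode urinary pheromone carriers with near-identical copies whose reads may be split. Their log2 fold changes at 3 and 9 months were -1.93 ± 0.66 and 0.93 ± 0.69 for Mup7, -0.48 ± 0.28 and -0.13 ± 0.28 for Mup3, and -0.51 ± 0.36 and 0.19 ± 0.37 for Slco1a1, a carrier of organic anions. Mup7 was at 2796 and 19997 CPM in the 3-month controls and at 2989, 4034 and 1953 in the exposed livers, so that control 3 alone stood above them all. Its 3-month value was -2.74 without control 2, which passed (edgeR adjusted p = 0.0023), and 0.10 without control 3. Slco1a1 was at 5206 and 2113 CPM in those controls and at 2056, 2806 and 2826 in the exposed livers. Its value was 0.28 without control 2 and -1.02 without control 3, which passed (edgeR adjusted p = 0.0374). For Mup3 the values were -0.73 and -0.16. Mup20 was at 3048 and 8936 CPM in the 3-month controls, at 1452, 1365 and 2055 in the exposed livers of that time, at 609.7 and 506 in the 9-month controls and at 682, 3274 and 608 in their exposed counterparts. From 3 to 9 months in controls Mup20 fell by 3.43 ± 0.75 on the log2 scale (edgeR adjusted p = 0.0421), and the value was -2.44 without 3-month control 3. It passed without 3-month control 2 or 3 or 9-month exposed liver 2, and not without any of the other 7 (adjusted p = 0.0615 to 0.316).

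Of 21 female-biased genes 19 were matched and 8 passed the filter, most of the others having hardly any counts. Prlr and Cux2 are also among the further pathway genes, so these lists are not independent. None of the 8 passed edgeR's test at 3 or 9 months. At an unadjusted p under 0.05 there were 2 of 8 and 0 of 8, against 14.5% and 2.25% of all genes. DESeq2 called 2 of 8 at 3 months, Acot3 and Abcd2, against 3.41% of all genes, and 0 at 9 months, and limma voom called 0 at both. Their median log2 fold change was 0.32 at 3 months, with 5 of 8 above 0, and -0.29 at 9 months, with 2 of 8 above 0. The 3-month median was 1.10 without control 2 and 1.82 without control 3, and the 9-month median was 0.87 without the pair of libraries richest in pancreas markers. Slco1a4, an organic anion carrier and the highest of them, was at 203 and 210.3 CPM in the 3-month controls and at 195, 219.5 and 305 in the exposed livers. Fmo2, a flavin monooxygenase, had log2 fold changes of -0.26 ± 0.52 at 3 and 0.19 ± 0.54 at 9 months, and its 3-month value was -0.88 without control 2 and 0.89 without control 3. Acot3, a peroxisomal acyl-CoA thioesterase, was at 6.11 and 1.29 CPM in those controls and at 37.6, 45.4 and 62 in the exposed livers (log2 3.77 ± 0.74, edgeR adjusted p = 0.0822). Acot3 passed that test at 5.21 without control 2 (edgeR adjusted p = 0.00152) and at 2.98 without control 3 (adjusted p = 0.0214). Without control 2 the female-biased genes that passed were Acot3 and Prlr, and without control 3 Acot3 alone, with 4.62% and 8.16% of all genes passing.

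**Figure D5:**
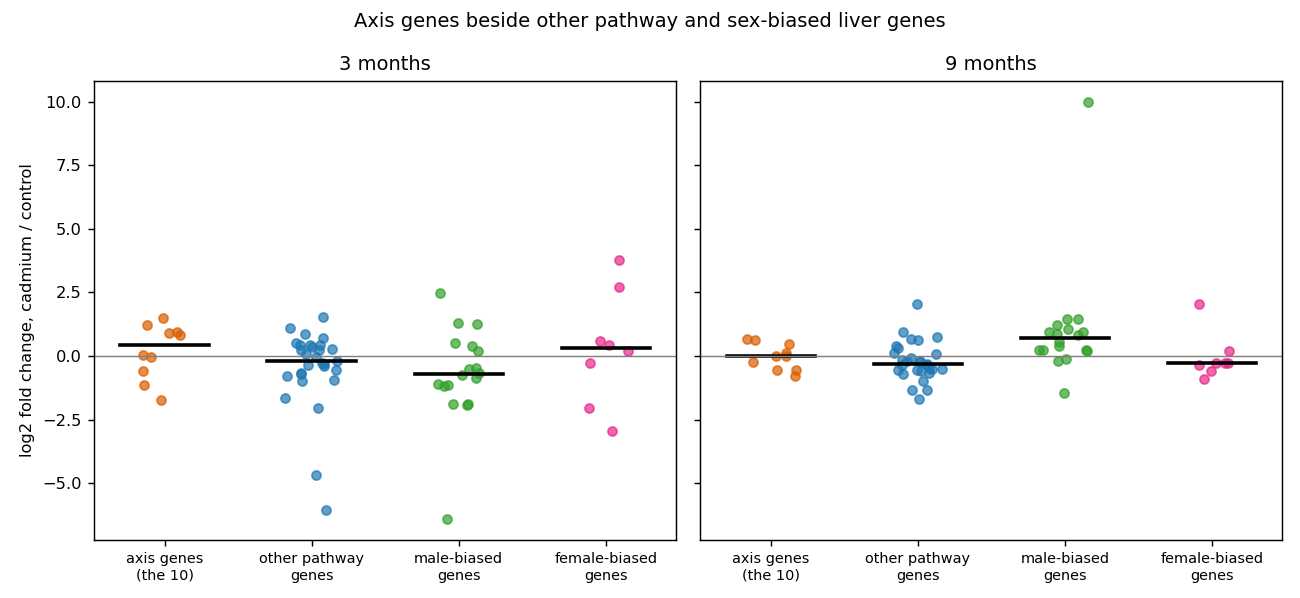
Log2 fold change of cadmium over control for the 10 axis genes, 29 other pathway genes, 18 male-biased and 8 female-biased genes. Panels show 3 months (left) and 9 months (right), with 1 point a gene in each list and a bar at the median. Prlr and Cux2 are in both the pathway and the female-biased list. The lowest pathway point at 3 months is Igfbp1 at -6.08, and the male-biased bar lies at -0.70 at 3 and 0.70 at 9 months. The top point at 9 months is Moxd1, named after its values were seen, with 0 counts in both 9-month controls. The exposed livers had a mean of 19.8 CPM, which is 37.3 times a floor of 3 counts per control library. The groups overlapped, so not every exposed liver held counts of it, and that ratio of a mean does not hold for each liver. With Moxd1 at that ratio the 9-month median is 0.70 too.

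The genes whose levels followed 3 members most closely over the 10 libraries were listed by Pearson correlation of log2(CPM + 1), among 9422 genes with a mean of at least 5 CPM. For Igf1 they were Gm14440 (r = 0.977), Ythdc1 (r = 0.950) and Ugt2b38 (r = 0.935). For Socs2, whose level is led by 3-month control 3, they were Gnl3 (r = 0.958), Alkbh5 (r = 0.914) and Fam107a (r = 0.899). For Bcl6 they were Ercc3 (r = 0.927), Ola1 (r = 0.923) and Armt1 (r = 0.916). The values describe likeness over 10 libraries made by 1 protocol, and say no more.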

How the data were processed

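RNA of mouse liver was measured in 20 libraries, of which 10 are input libraries by their titles. The other 10 were not analysed here. For each RefSeq transcript the deposited table gives raw read counts and the authors' TPM, per the file headers. Per the submitters' processing notes, bcl2fastq, TopHat2 2.0.13 and MACS2 2.1.0.20151222 were used, with hg19, mm10 and rn6 listed as builds and no roles stated. Read counter, strand setting and annotation release: not given in the sources used here. Gene positions in the table look like mm10. Another 12 columns, from 6 libraries, fit no label and were left aside.

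Transcripts of a gene share reads, so each gene was given its transcript with the highest count over the 10 libraries. Counts were filtered with filterByExpr (14067 genes), scaled by TMM and fitted over all 10 libraries with edgeR 4.0.16 (R 4.3.3; common dispersion 0.309, prior degrees of freedom 7.59, residual 6), two-sided, with Benjamini-Hochberg adjustment over all genes and a threshold of 0.05. The SE is the log2 fold change over the root of the F statistic. CPM use TMM-scaled totals and describe levels, and TPM were used only to set genes beside each other. Alternatives were DESeq2 1.42.0, its size factors, limma 3.58.1 voom with library weights, other filters, sums over transcripts, only the groups compared, a block for the replicate number, and fits without single libraries. The steps were tested on counts simulated with a dispersion below the 0.309 of these data. That test does not tell how the steps perform at the spread seen here. Tables were handled with Python 3.11.15, pandas 2.3.3, numpy 2.4.6 and matplotlib 3.10.9.

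Text names the 10 members, from each further list up to 4 genes past the threshold or otherwise those with the highest CPM, and Igfbp1, Igf1r, Jak2 and Prlr. The members and lists were chosen with earlier results of these data known. Depth was 11354034 to 25860245 counts over transcripts, with 12730 to 16519 genes detected. Floors cover counting error only. The mean of both times, the ratio of Ghr transcripts and the list medians without some libraries were added after the data were seen.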

Additional observations from a re-analysis of the deposited data

How the results depend on the processing

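With 1 library left out at a time, the count of members past the threshold ran from 0 to 3 for cadmium at 3 months, 0 to 1 for the difference of effects, 0 to 2 for 9 against 3 months in controls and 0 to 2 for the mean of both times, and stayed at 0 in the remaining comparisons. These counts were above 0 only without 3-month control 2 or 3. The 2 controls a time limit precision, and Cish had the fewest counts of the members, 12 to 195. With no filter on low counts, 2 members passed at 3 months (Igfbp2 at 1.23 and Socs2 at -1.73), where 2.39% of 20967 genes passed, and 4 in 9 against 3 months of controls (Igfals, Socs2, Igfbp2, Igfbp4), where 5.12% passed. DESeq2 called 2 members in the latter, and 8.8% of all genes. The cause was not tested. Stat5b kept its direction at each time under all alternatives, from -0.79 to -0.37 at 3 months and from -0.75 to -0.48 at 9 months. Its exposed libraries all lay below the controls of their time, so leaving out a library could not turn the sign. Stat5a and Igfals also kept their directions at both times.

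Log2 fold changes that crossed 0 with 1 library left out had these ranges. At 3 months they were -0.69 to 1.62 for Ghr, -0.38 to 0.23 for Igf1, -2.86 to 0.20 for Socs2 and -1.81 to 0.13 for Bcl6. At 9 months they were -0.62 to 1.09 for Socs2, -1.06 to 0.11 for Cish, -0.39 to 0.50 for Igfbp2 and -0.01 to 0.19 for Igfbp4. In the difference they were -0.97 to 1.33 for Ghr, -0.20 to 0.22 for Stat5b and -0.18 to 2.87 for Socs2. From 3 to 9 months in controls they were -1.10 to 1.21 for Ghr, -2.63 to 0.37 for Socs2, -0.07 to 1.50 for Cish and -1.20 to 0.74 for Bcl6. In exposed livers they were -0.06 to 0.62 for Ghr, -0.59 to 0.00 for Igf1, -0.09 to 0.48 for Igfals, -0.90 to 0.22 for Stat5a, -0.23 to 1.29 for Socs2 and -0.16 to 0.38 for Igfbp2. In the mean of both times they were -0.02 to 1.13 for Ghr, -0.11 to 1.26 for Igfals, -0.24 to 0.20 for Stat5a, -1.43 to 0.11 for Socs2 and -0.56 to 0.41 for Bcl6.

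Other alternatives also turned some signs. Socs2 at 9 months was -0.01 with DESeq2, -0.06 with voom and -0.84 without 9-month control 2 and exposed liver 1 (the libraries with most pancreas RNA), and without that pair -0.03 over time in exposed livers. With voom, Igfbp2 was 0.02 at 9 months, the Stat5b difference -0.02, Ghr over time in controls 0.10 and Stat5a in the mean -0.04. The Stat5b difference was -0.01 with no filter. With the replicate number as a block, 0 members passed in any comparison, Igfbp4 at 9 months was -0.01, the Stat5b difference -0.14 and Stat5a in the mean -0.05. Deviations from the group mean correlated at -0.35 to 0.04 for same-numbered libraries and at -0.26 to 0.35 for the others. With 2 controls a time, their deviations mirror each other by construction, so this check cannot tell whether the numbers pair the samples. Igfbp1 at 3 months was -5.60 with the block (edgeR adjusted p = 0.102), -6.08 with sums over transcripts (0.0749) and -6.08 with only the compared groups (0.265), none of which passed.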
